A study of Mus musculus with 8 samples.

Results

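Chemokine receptors were followed in 2 sorted cell fractions of mouse mammary tumors. The set holds 9 receptor genes, Ccr1, Ccr2, Ccr7, Cx3cr1, Cxcr2, Cxcr3, Cxcr4, Cxcr6 and Xcr1, out of 19938 genes measured. A gene was taken where a row of the array carried exactly 1 symbol equal to its name, and each of the 9 had 1 such row. No filter on low values was used, so all 9 were tested. The tumor-initiating cell (TIC) fraction gave 4 arrays and the CD24- fraction of the same tumors, which the labels call non-tumor-initiating, gave 4. All mice were FvB animals with the MMTV-Neu transgene, for which the labels name no further allele or agent, and every primary mammary tumor was under 1.0 cm in diameter. The MMTV promoter drives the Neu oncogene, the rat form of Erbb2, mainly in mammary epithelium, while the host mouse keeps its own immune cells. Tumors N251, N260 and N283 gave a pair of arrays each, and a pool of N222 and N229 cells in equal amounts gave another, so that 5 tumors yielded 4 pairs. Which markers gated the TIC fraction, and how old the mice were, is not stated in the labels.

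Chemokine receptors are proteins of the cell surface that cross the membrane several times and couple to inhibitory G proteins. A bound chemokine releases G protein subunits that activate phosphoinositide 3-kinase and Rac, and the cell moves up the chemokine gradient. Most of the 9 are known chiefly from leukocytes, where each population carries its own combination, and tumors draw in macrophages, T cells and neutrophils through them. Cxcr4 is the widest in its distribution and is also found on epithelial, endothelial and stem cells.

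Values are log2 intensities, and a difference is the TIC minus the CD24- level on that scale, so that -1 is a fall by a factor of 2 on the linear scale. The medians of the 8 arrays lay between 7.03 and 7.18. Cd24a, which encodes the CD24 protein of the sort, was higher in the TIC fraction in 4 of 4 tumors without passing the test (difference 1.11 ± 0.29 SE, limma adjusted p = 0.148). Of 20 epithelial markers, 0 passed the test in either direction, and their mean level was 10.18 to 10.23 in the TIC arrays and 9.20 to 10.15 in the CD24- arrays. Of the 20, 11 were higher in the TIC fraction in all 4 tumors (23.2% of all genes) and 0 were lower in all 4 (11.8%). Their median difference was 0.41. The CD24- arrays of N251 and of the pool deviated most from their group, by a mean absolute 0.272 and 0.242 per gene, against 0.106 to 0.177 for the other 6 arrays. In the 15 pan-leukocyte markers the mean level was 6.81 to 7.07 in the TIC arrays and 9.01 to 11.55 in the CD24- arrays. In bulk samples such as these, fewer cells of a type and less RNA per cell cannot be told apart.

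Every one of the 9 receptors had a lower mean in the TIC fraction than in the CD24- fraction. Cx3cr1 and Ccr1 fell by more than the spread between arrays. In a limma fit over all genes, without pairing by tumor, both had a Benjamini-Hochberg adjusted p under 0.05. These 2 of 9 stand against 0.742% of all genes called lower in the TIC fraction, and 0 of 9 rose, against 0.0502% of all genes called higher. The 9 were chosen with earlier results of these data known, so the shares set beside their counts are a description and no test. In the fit with the tumor as a block, 3 of 9 were called lower (1.09% of all genes), Ccr2 being added, and 0 of 9 higher (0.863%). Without the CD24- array of the pool, 7 of 9 were called lower, all but Cxcr4 and Xcr1 (adjusted p = 0.000413 for Cx3cr1 to 0.0473 for Cxcr2). Without the CD24- array of N251, 3 of 9 were called lower. Calls rose over all genes as well, from 148 lower with every array to 583 without the pool's CD24- array and 314 without that of N251. The median difference over the 9 was -1.07, against 0.04 over all genes. In 7 of the 9 the TIC level was below the CD24- level in all 4 tumors (11.8% of all genes), the exceptions being Cxcr4 and Xcr1. In 5 of the 9 every TIC array was below every CD24- array (4.68% of all genes). None of the 9 was higher in all 4 tumors (23.2% of all genes), and in none was every TIC array above every CD24- array (5.19%).

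**Figure D1:**
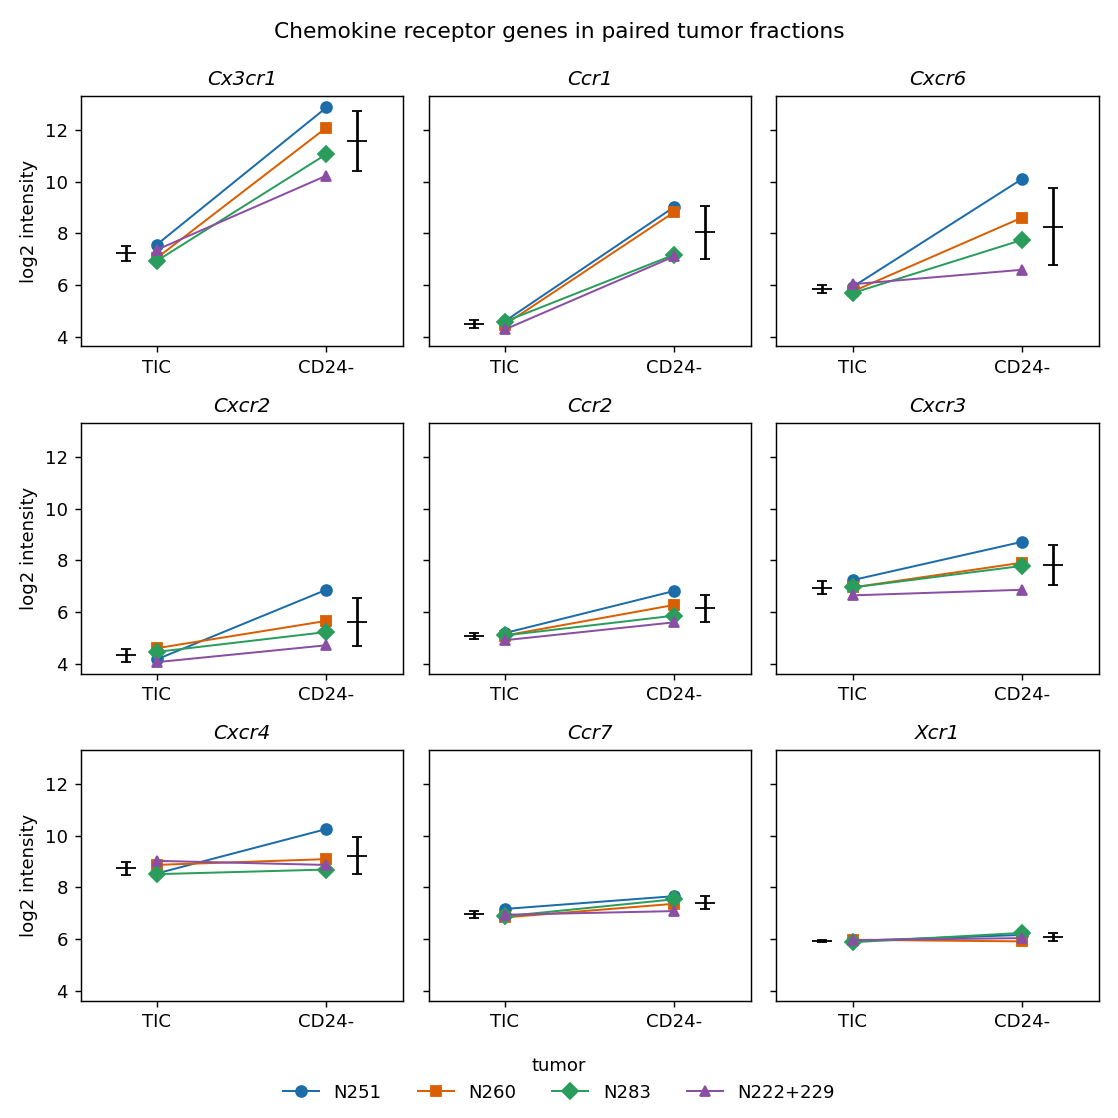
Levels of the 9 chemokine receptor genes (log2 intensity, vertical axis) in the TIC and CD24- arrays, with 1 point per array lines joining the fractions of a tumor or pool, and black bars for the mean ± SD (n = 4). Cx3cr1 lay between 6.94 and 7.57 in the TIC arrays and between 10.23 and 12.87 in the CD24- arrays, whereas Ccr7, Cxcr3, Cxcr4 and Xcr1 overlapped between the fractions.

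The promoters of 5 of the 9 genes are shown, those with the largest differences (Cx3cr1, Ccr1 and Cxcr6) beside those of Cxcr4 and Xcr1, the members not lower in all tumors. They are RefSeq sequences of assembly GRCm38.p6, 250 bases before to 50 after the gene's start, written 5′ to 3′ on the strand of the gene. Capitals mark the letters GAGGAA, the core bound by the myeloid factor PU.1, and TGTGGT, the core bound by RUNX factors, searched on both strands, so that a match on the other strand reads TTCCTC or ACCACA.
Cx3cr1: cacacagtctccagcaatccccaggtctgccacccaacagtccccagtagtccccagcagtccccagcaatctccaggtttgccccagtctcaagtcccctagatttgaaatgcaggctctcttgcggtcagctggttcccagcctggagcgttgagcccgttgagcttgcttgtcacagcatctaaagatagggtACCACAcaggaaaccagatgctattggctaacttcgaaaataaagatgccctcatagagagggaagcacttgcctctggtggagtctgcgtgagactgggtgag
Ccr1: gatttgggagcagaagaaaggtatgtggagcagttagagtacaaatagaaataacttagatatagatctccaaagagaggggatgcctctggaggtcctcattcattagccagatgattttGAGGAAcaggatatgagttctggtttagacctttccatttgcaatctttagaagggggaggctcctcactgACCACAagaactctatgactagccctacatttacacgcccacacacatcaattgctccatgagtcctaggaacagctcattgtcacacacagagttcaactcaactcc
Cxcr6: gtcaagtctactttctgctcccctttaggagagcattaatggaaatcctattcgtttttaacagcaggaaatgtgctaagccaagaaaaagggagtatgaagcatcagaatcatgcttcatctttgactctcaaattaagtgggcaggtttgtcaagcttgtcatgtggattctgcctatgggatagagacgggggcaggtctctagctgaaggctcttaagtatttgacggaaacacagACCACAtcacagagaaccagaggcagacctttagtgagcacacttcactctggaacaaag
Cxcr4: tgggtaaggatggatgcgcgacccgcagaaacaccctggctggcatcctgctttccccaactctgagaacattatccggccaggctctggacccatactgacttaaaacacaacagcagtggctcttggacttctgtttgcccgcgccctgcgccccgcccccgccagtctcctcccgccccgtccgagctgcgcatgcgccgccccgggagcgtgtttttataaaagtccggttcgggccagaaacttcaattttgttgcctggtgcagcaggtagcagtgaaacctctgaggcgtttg
Xcr1: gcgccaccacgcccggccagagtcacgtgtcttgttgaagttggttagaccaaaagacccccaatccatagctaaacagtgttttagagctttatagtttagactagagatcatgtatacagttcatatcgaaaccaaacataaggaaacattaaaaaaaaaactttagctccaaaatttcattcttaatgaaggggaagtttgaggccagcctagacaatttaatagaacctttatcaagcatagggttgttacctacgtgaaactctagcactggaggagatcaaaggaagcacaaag
Their positions are chr9:120068247-120068546 (minus strand) for Cx3cr1, chr9:123968643-123968942 (minus strand) for Ccr1, chr9:123806227-123806526 (plus strand) for Cxcr6, chr1:128592250-128592549 (minus strand) for Cxcr4 and chr9:123861980-123862279 (minus strand) for Xcr1. The promoter of Ccr1 held the PU.1 core with its first base at -129, counted from the gene's start, and the RUNX core at -58. The RUNX core alone stood at -54 in the promoter of Cx3cr1 and at -10 in that of Cxcr6, and neither core was in the windows of Cxcr4 and Xcr1. The matches did not overlap each other. Among the 8 members with a promoter in the table, 3 held the PU.1 core and 4 the RUNX core, beside 28.3% and 16.8% of all 32851 promoters of the same length. Of the promoters not shown, that of Cxcr2 held the PU.1 core and that of Cxcr3 both cores, although neither gene passed the test. The promoter of Ccr2, called lower with the tumor block, held neither core. A link between the cores and the differences was not tested. A match describes the letters only, and Ccr7 is named without a sequence.

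Among the receptors of myeloid cells, Cx3cr1 had the largest difference of the 9. It is the receptor of fractalkine and marks tissue macrophages, microglia and patrolling monocytes. Its level was 7.57, 7.05, 6.94 and 7.36 in the TIC arrays of N251, N260, N283 and the pool, against 12.87, 12.09, 11.07 and 10.23 in the CD24- arrays. All 4 TIC arrays lay close together and far below the lowest CD24- array, while the CD24- arrays spread over more than 2 log2 units with N251 on top. The difference was -4.34 ± 0.49 (SE, 95% interval -5.45 to -3.23), a level 20.2-fold lower in the TIC fraction (limma adjusted p = 0.00496, 0.0189 with the tumor block). The call was lost without both arrays of N260 (adjusted p = 0.153) and without both arrays of N283 (0.0702). Without the CD24- array of N251 the difference was -3.90 (adjusted p = 0.00144).

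Ccr1, a receptor for Ccl3, Ccl5 and related chemokines on monocytes, macrophages and neutrophils, fell as well. It had 4.59, 4.46, 4.58 and 4.27 in the TIC arrays of N251, N260, N283 and the pool, and 9.02, 8.82, 7.17 and 7.11 in the CD24- arrays. The CD24- arrays formed a higher pair, N251 and N260, and a lower pair, and the TIC arrays were all below the lower quartile of their own array. The difference was -3.55 ± 0.43 (SE, 95% interval -4.53 to -2.58, limma adjusted p = 0.00763, 0.0225 with the tumor block). Whether TIC levels this low are above background was not tested, so no fold is given. Without both arrays of N260 the call was lost (adjusted p = 0.153), and without the CD24- array of N251 it stood (-3.22, adjusted p = 0.0041). Of the 9 genes, 3 had all TIC arrays under the lower quartile, namely Ccr1, Ccr2 and Cxcr2, against 16.5% of all genes.

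Ccr2 brings Ly6C-high monocytes out of the bone marrow and into inflamed tissue in answer to Ccl2. Its level was 5.18, 5.09, 5.09 and 4.91 in the TIC arrays and 6.82, 6.28, 5.86 and 5.60 in the CD24- arrays, in the same order of tumors. The groups did not overlap, and in the CD24- fraction N251 was the highest and the pool, the only array of that fraction under its lower quartile, the lowest. The difference was -1.07 ± 0.23 (SE, 95% interval -1.60 to -0.54). Its limma adjusted p was 0.0858 without the tumor block and 0.0476 with it. Without the block, the call was also made with array weights (-1.01, limma adjusted p = 0.00376). It was made too without the CD24- array of the pool (-1.25, 0.0143) and without that of N251 (-0.84, 0.0377).

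Cxcr2 is the receptor through which neutrophils answer Cxcl1, Cxcl2 and Cxcl5. It had 4.17, 4.60, 4.46 and 4.06 in the TIC arrays, against 6.86, 5.66, 5.23 and 4.71 in the CD24- arrays. Only the CD24- array of N251 was above its lower quartile, and the groups did not overlap. The difference of -1.29 ± 0.39 (SE, 95% interval -2.19 to -0.40) did not pass the test (limma adjusted p = 0.197) and was -0.83 without both arrays of N251 (adjusted p = 0.312). With the block and without those arrays, a setting added after the values were seen, Cxcr2 was called (adjusted p = 0.0183).

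Most macrophage markers fell beside Cx3cr1 and Ccr1. Of 18 macrophage markers 13 were called lower in the TIC fraction and 0 higher, with a median difference of -3.56. Their mean level was 6.39 to 6.68 in the TIC arrays and 8.97 to 11.22 in the CD24- arrays. Csf1r, the receptor that macrophages need to survive, differed by -5.06 (limma adjusted p = 0.00224) and Lyz2, lysozyme, by -5.77 (0.00173), calls lost without both arrays of N260 (0.0954 and 0.0783). Of 10 monocyte markers 1 was called lower, Ms4a6c (-6.24, adjusted p = 0.000202), with a median of -0.51 and mean levels of 6.56 to 6.72 in the TIC arrays and 7.37 to 8.19 in the CD24- arrays. Of 14 neutrophil markers 0 were called in either direction (1 lower with the tumor block), with a median of -0.37 and mean levels of 6.04 to 6.35 in the TIC arrays and 6.26 to 7.23 in the CD24- arrays. S100a8, a major protein of the neutrophil cytosol, differed by -0.37 (adjusted p = 0.36), and by -0.195 without the CD24- array of N251. The part of such cells in the receptor differences was not tested.

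**Figure D2:**
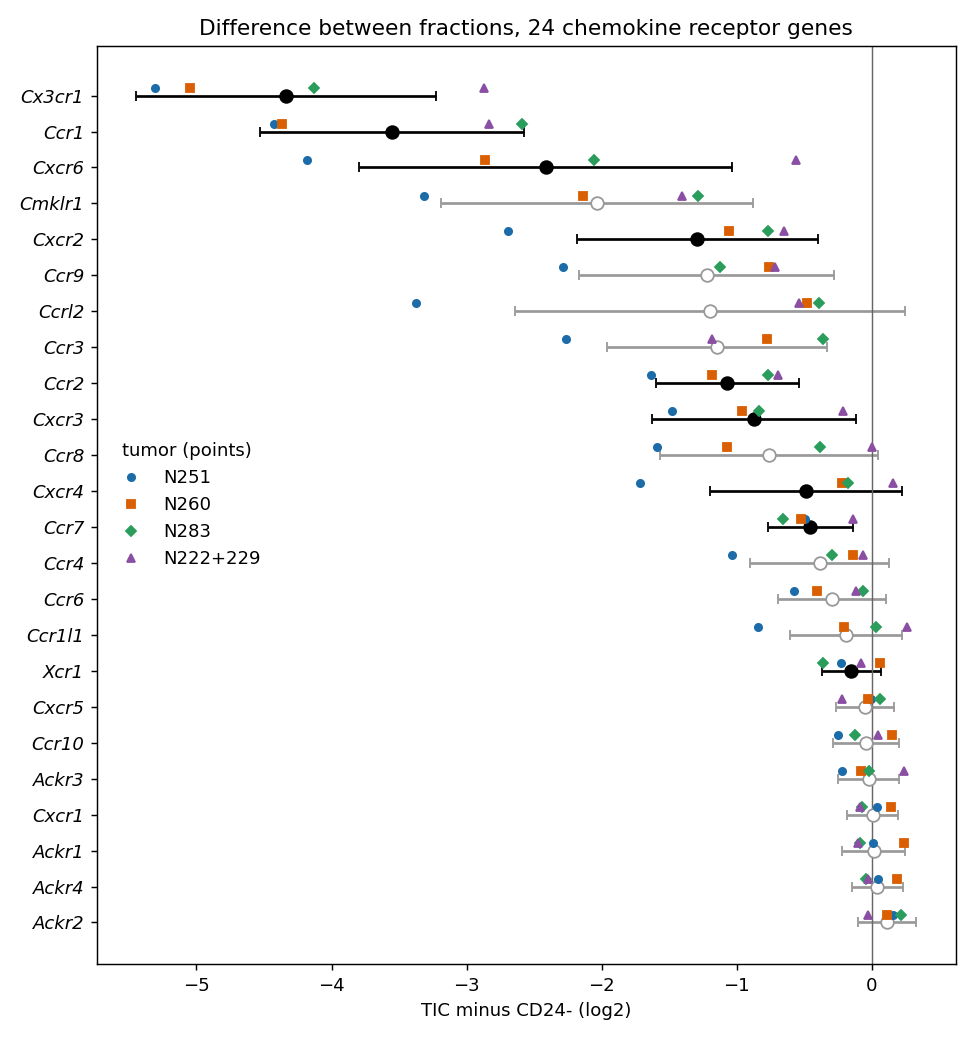
TIC minus CD24- differences (log2) of the 9 chemokine receptor genes and the 15 other receptors measured, 1 gene per row, with a circle for the fitted difference (filled for the 9, open for the others), a line for its 95% interval and coloured points for the tumors or pool. Cx3cr1 (-4.34) and Ccr1 (-3.55) stood farthest below 0, and none of the 9 was above it.

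Among the receptors of lymphocytes, Cxcr6 showed the largest difference and the widest spread between tumors. It guides resident and effector T cells, NK cells and NKT cells to Cxcl16. Its level was 5.93, 5.75, 5.69 and 6.03 in the TIC arrays of N251, N260, N283 and the pool, against 10.11, 8.61, 7.75 and 6.59 in the CD24- arrays. The TIC arrays hardly differed from each other, while the CD24- arrays stepped down from N251 to the pool, the lowest of them still above every TIC array. In 2 of the 4 TIC arrays Cxcr6 lay under the lower quartile of its array. Whether such levels are above background was not tested, so no fold is given. The difference of -2.42 ± 0.61 (SE, 95% interval -3.80 to -1.03) did not pass the test (limma adjusted p = 0.134, 0.0949 with the tumor block). Within the tumors it was -4.18, -2.86, -2.06 and -0.56. Without the CD24- array of N251 it was -1.80 (adjusted p = 0.0647), and without the CD24- array of the pool it was called.

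Cxcr3, which answers the interferon-induced chemokines Cxcl9 and Cxcl10 on T helper 1 cells, cytotoxic T cells and NK cells, had 7.24, 6.95, 6.95 and 6.64 in the TIC arrays. In the CD24- arrays it had 8.72, 7.91, 7.79 and 6.86. The CD24- array of the pool lay within the TIC range, so the groups overlapped. The difference was -0.87 ± 0.33 (SE, 95% interval -1.63 to -0.12) with a limma adjusted p of 0.289, lower in 4 of 4 tumors, and -0.57 without the CD24- array of N251.

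Ccr7 leads naive T cells and migrating dendritic cells to lymph nodes. Its level was 7.17, 6.84, 6.88 and 6.94 in the TIC arrays and 7.66, 7.37, 7.54 and 7.08 in the CD24- arrays. The CD24- level was lowest in the pool, under the TIC array of N251. The difference was small and even between the single tumors (-0.49, -0.53 and -0.66) and least in the pool (-0.14), and over all arrays it was -0.46 ± 0.14 (SE, 95% interval -0.77 to -0.14, limma adjusted p = 0.198). Ccr7 was called in 3 of 23 settings, and Cxcr6 and Cxcr3 in 3 and 2 of 23.

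Of 17 T and NK cell markers 3 were called lower in the TIC fraction (5 with the tumor block) and 0 higher, with a median of -1.80. Their mean level was 5.93 to 6.14 in the TIC arrays and 6.95 to 9.33 in the CD24- arrays, and the lowest CD24- value was again above every TIC value. Cd3g, a chain of the T cell receptor complex, differed by -5.62 (limma adjusted p = 0.00224, and 0.0954 without both arrays of N260), while Cd3d, another chain of it, differed by -0.84 (0.302), and by -0.55 without the CD24- array of N251. Of 8 B cell markers 0 were called in either direction (1 lower with the block), with a median of -0.36 and mean levels of 5.78 to 6.04 in the TIC arrays and 6.03 to 6.48 in the CD24- arrays. Of 9 markers of cDC2 and migratory dendritic cells 1 was called lower, Cd209a (-1.13, adjusted p = 0.0292, a call lost in 10 settings), with a median of -0.42 and mean levels of 6.44 to 6.72 in the TIC arrays and 6.79 to 8.00 in the CD24- arrays. The part of these cells in the receptor differences was not tested.

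Xcr1 and Cxcr4 were the members that were lower in only 3 of the 4 tumors. Xcr1 is the Xcl1 receptor that defines type 1 conventional dendritic cells (cDC1). It had 5.93, 5.97, 5.88 and 5.96 in the TIC arrays, against 6.16, 5.91, 6.24 and 6.04 in the CD24- arrays, and all 8 arrays lay within 0.4 log2 units. The difference was -0.15 ± 0.10 (SE, 95% interval -0.37 to 0.06, limma adjusted p = 0.518). These levels are near the lower quartiles of the arrays (5.82 to 5.94), and whether they are above background was not tested. Of 10 cDC1 markers 0 were called in either direction without the block and 2 lower with it. Their median was -0.55 and their mean level 7.11 to 7.39 in the TIC arrays and 7.57 to 8.79 in the CD24- arrays. Clec9a, the lectin by which cDC1 take up dead cells, differed by -0.35 (adjusted p = 0.236).

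Cxcr4, the receptor of Cxcl12 that holds stem cells in the bone marrow and is carried by many tumor cells, had 8.54, 8.87, 8.51 and 9.03 in the TIC arrays. It had 10.26, 9.10, 8.69 and 8.87 in the CD24- arrays. Apart from the CD24- array of N251 the fractions overlapped, and in the pool the TIC array was the higher. The difference was -0.49 ± 0.31 (SE, 95% interval -1.20 to 0.22, limma adjusted p = 0.526). Without both arrays of N251 it was -0.08 (adjusted p = 0.968), so that the size rested on N251. Neither Cxcr4, in 24 settings, nor Xcr1, in 23, was called in any.

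The median difference had an order over the tumors. For N251 the median over the 9 receptors was -1.72, for N260 -1.06, for N283 -0.77 and for the pool -0.56. Of the 9, 6 followed that order gene by gene, and Ccr1, Ccr7 and Xcr1 did not. The order was read from these same 9 genes, so that count is a description, and no share of all genes was taken for it. In 7 of the 9 the drop was largest in N251 (27.9% of all genes), the exceptions being Ccr7 and Xcr1, where it was largest in N283. The TIC levels hardly took part in this order, since the mean over the 9 lay between 6.11 and 6.26 in the TIC arrays, against 7.01 to 8.72 in the CD24- arrays. The CD24- level was highest in N251 for 8 of the 9 (37% of all genes), Xcr1 being the exception. Among the 2346 genes lower in all 4 tumors, 80.9% had their highest CD24- level in N251, and so did 7 of the 7 receptors of that kind. The macrophage markers had the same order, with medians of -5.01, -4.04, -3.07 and -2.52 in the same tumors. So did the pan-leukocyte markers (-4.36, -3.66, -2.49 and -1.57) and the T and NK cell markers (-2.51, -1.89, -1.72 and -0.69). The monocyte markers, the other receptors, the ligands and the signalling genes also followed it. The neutrophil, B cell, dendritic cell, endothelial, fibroblast and epithelial lists did not.

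**Figure D3:**
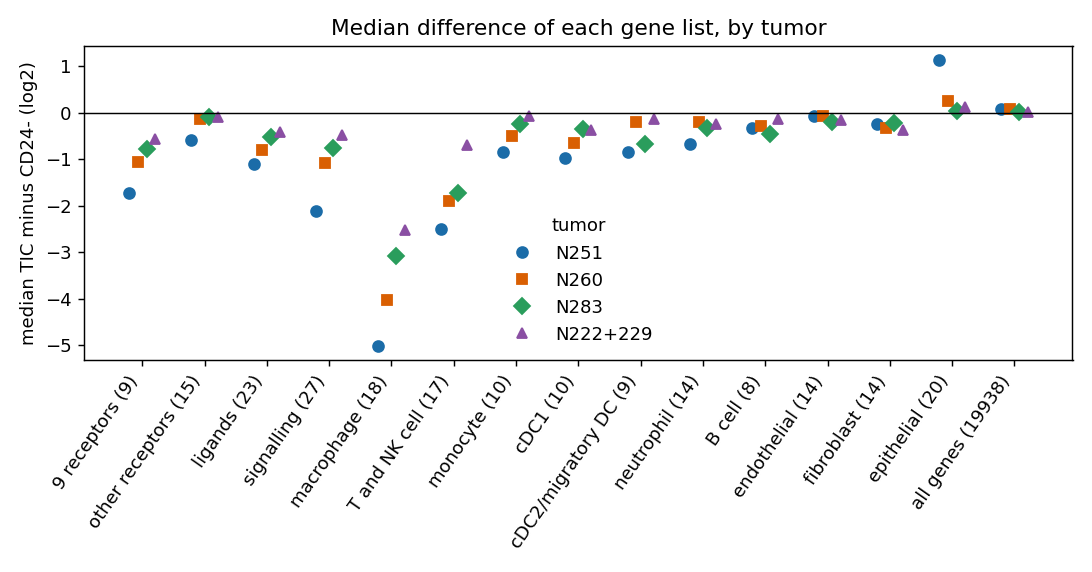
Median TIC minus CD24- difference (log2, vertical axis) of the 9 chemokine receptors and of other gene lists in each tumor or pool, with 1 point per tumor. The receptors ran from -1.72 in N251 to -0.56 in the pool, and the epithelial markers were at 1.13 in N251 and between 0.04 and 0.26 in the other 3.

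The genes with profiles nearest to those of the 2 called receptors were sought over the 8 arrays, each gene centred on its own mean. Cx3cr1 lay nearest to Ptprc, which encodes the leukocyte common antigen CD45, with a root mean square difference of 0.155 log2 units, and next to Nckap1l, the haematopoietic member of the WAVE actin complex, at 0.176. Ptprc differed by -4.29 (limma adjusted p = 0.0135) and Nckap1l by -4.25 (0.00899). Ccr1 lay nearest to Milr1, an inhibitory receptor of mast cells, at 0.238, and to Havcr2, the receptor Tim-3, at 0.240. Milr1 differed by -3.21 (adjusted p = 0.0159) and Havcr2 by -3.54 (0.00982). These 4 genes were picked by the likeness itself, so their differences are given as a description. Without both arrays of N260 none of the 4 was called (adjusted p = 0.204 to 0.292). With arrays left out in other ways, Ptprc and Milr1 lost the call in 7 settings and Havcr2 and Nckap1l in 4, N260 included.

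Of 16 other chemokine receptors listed, 15 were measured and 1 was not analysed here. None of the 15 was called in either direction, with or without the tumor block, and the median was -0.19. Cmklr1, the chemerin receptor of macrophages and dendritic cells, had 7.01, 7.28, 6.85 and 6.37 in the TIC arrays, against 10.33, 9.42, 8.14 and 7.77 in the CD24- arrays. Its groups did not overlap, and its difference of -2.04 ± 0.51 (SE) had an adjusted p of 0.129, and 0.0538 with the block. Cmklr1 was called in 4 other settings, at a limma adjusted p of 0.0128 (array weights) to 0.0261 (without the CD24- array of the pool). Ccr9, a receptor of gut-homing lymphocytes, differed by -1.22 (limma adjusted p = 0.241) and was called without both arrays of N251 (-0.87, 0.0404). Ccr3, the eotaxin receptor of eosinophils, differed by -1.15 (0.209), and by -0.74 without the CD24- array of N251. Ccrl2, which binds chemerin without signalling, differed by -1.20 (0.436), a value that was -0.43 without the CD24- array of N251.

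Ccr8, found on regulatory T cells, differed by -0.76, Ccr4, of T helper 2 and regulatory T cells, by -0.39 and Ccr6, the Ccl20 receptor, by -0.29. Without the CD24- array of N251 Ccr8 was at -0.43, Ccr4 at -0.13 and Ccr6 at -0.13. The remaining 8 differed by -0.19 (Ccr1l1) to 0.11 (Ackr2). Among these were the scavenging receptors Ackr1, Ackr2, Ackr3 and Ackr4, which bind chemokines without moving the cell, Ccr10, Cxcr1 and the B cell receptor Cxcr5. In 6 of the 15 the TIC level was lower in all 4 tumors (11.8% of all genes). In 4 of the 15 every TIC array was below every CD24- array (4.68% of all genes).

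Of 24 listed ligands of the 9 receptors, 23 were measured. Ccl2, Ccl3 and Ccl5 fell in the TIC fraction, 0 rose, and with the tumor block Ccl7 and Xcl1 were called lower as well. The median difference was -0.82, and 15 of the 23 were lower in all 4 tumors (11.8% of all genes). Ccl3, a ligand of Ccr1 made by activated macrophages and T cells, had 6.32, 5.79, 5.87 and 5.87 in the TIC arrays, against 12.98, 10.84, 10.27 and 11.33 in the CD24- arrays. No TIC array came near a CD24- array. The TIC levels were near the lower quartiles of the arrays, and whether they are above background was not tested, so no fold is given. The difference of Ccl3 was -5.39 ± 0.49 (SE, limma adjusted p = 0.00195), and its call was lost without both arrays of N260 (0.0783).

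Ccl5, which Ccr1 binds and T and NK cells secrete, had 7.55, 7.58, 7.13 and 7.44 in the TIC arrays and 12.13, 10.66, 10.31 and 9.02 in the CD24- arrays. Its difference was -3.11 ± 0.53 (SE, limma adjusted p = 0.0377). Ccl2, the main ligand of Ccr2, had 6.80, 6.56, 6.78 and 6.77 in the TIC arrays and 9.34, 8.15, 7.93 and 7.96 in the CD24- arrays, a difference of -1.62 ± 0.29 (SE, adjusted p = 0.0429). Neither gene overlapped between the fractions, and both calls were close to the threshold. Each was lost without any 1 of the TIC arrays, without the CD24- array of N260 or without both arrays of N260 or N283, and that of Ccl5 also without the CD24- array of N283 and that of Ccl2 also without both arrays of the pool. The adjusted p in those settings was 0.0595 to 0.391 for Ccl5 and 0.0776 to 0.391 for Ccl2, and neither was called with all rows tested (0.0729 for Ccl5 and 0.0805 for Ccl2), nor Ccl2 after quantile normalization (0.055).

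Cx3cl1, the only ligand of Cx3cr1, had 8.96, 8.84, 8.65 and 9.38 in the TIC arrays and 8.61, 8.69, 9.12 and 9.43 in the CD24- arrays, a difference of -0.0039 (95% interval -0.49 to 0.48, limma adjusted p = 0.996). The fractions overlapped throughout, beside a receptor that was 20.2-fold lower. Xcl1, the ligand of Xcr1 and a product of T and NK cells, had 6.50, 6.43, 6.40 and 6.25 in the TIC arrays, against 11.21, 10.72, 9.48 and 7.60 in the CD24- arrays. Its difference of -3.36 ± 0.66 (SE, 95% interval -4.85 to -1.86) had an adjusted p of 0.0591, and 0.0499 with the tumor block.

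Cxcl12 is the ligand of Cxcr4 and is made by stromal cells. It was the only listed ligand higher in the TIC fraction in 4 of 4 tumors, as were 23.2% of all genes. Its tumor differences were 1.04, 0.11, 0.36 and 0.39. The difference of 0.47 ± 0.21 (SE) did not pass the test (limma adjusted p = 0.344). Cxcl16, which is the ligand of Cxcr6 and is made by macrophages and dendritic cells, differed by -2.03 (0.0504), close to the value of its receptor (-2.42). The Cxcr3 ligands Cxcl9 and Cxcl10 differed by -1.66 (0.0596) and -1.42 (0.107). Of the Cxcr2 ligands, Cxcl1, Cxcl3 and Cxcl5 lay between -0.029 and 0.0045. Cxcl2 differed by -1.73 (0.374), with 10.03 in the CD24- array of N251 and 5.74, 6.03 and 6.996 in the other CD24- arrays. Ccl19, a ligand of Ccr7, differed by -0.046 (0.907).

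**Figure D4:**
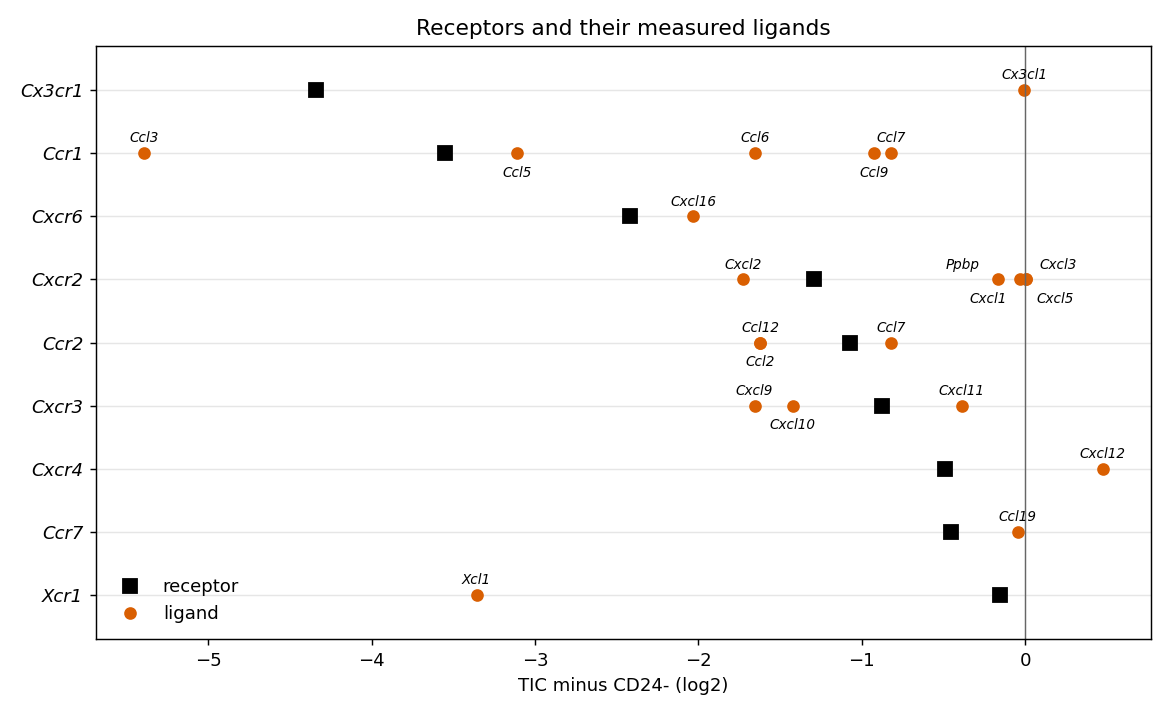
TIC minus CD24- differences (log2, horizontal axis) of each of the 9 receptors and its measured ligands, 1 receptor per row, with a black square for the receptor and orange points for the ligands. Ccr1 and Ccl3 both lay far below 0 (-3.55 and -5.39), Cx3cr1 had a ligand near 0, and Xcr1 lay near 0 with a ligand at -3.36.

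Of 30 genes listed for signalling downstream of the receptors, 27 were measured, and Rgs1 and Vav1 fell while 0 rose. The median was -1.05, and 20 of the 27 were lower in all 4 tumors (11.8% of all genes). Rgs1, which ends G protein signalling in lymphocytes and macrophages, had 4.94, 5.07, 4.50 and 4.77 in the TIC arrays, against 12.05, 10.42, 8.95 and 9.97 in the CD24- arrays. The fractions lay far apart (difference -5.53 ± 0.54 SE, limma adjusted p = 0.00224, and 0.0954 without both arrays of N260). All 4 TIC arrays of Rgs1 were below their lower quartile. Vav1, the exchange factor that activates Rac in blood cells, had 5.85, 5.48, 5.86 and 5.71 in the TIC arrays and 10.89, 9.97, 8.69 and 7.78 in the CD24- arrays. Its difference was -3.61 ± 0.57 (SE, adjusted p = 0.0259). The call of Vav1 was lost without any 1 of the TIC arrays, without the CD24- array of N260, and without both arrays of N251, N260 or N283 (adjusted p = 0.0536 to 0.356), and with all rows tested (0.0521).

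Further signalling genes were chosen after their values were seen, and none of them passed the test. The inhibitory G protein subunits Gnai2 and Gnai3 differed by -0.27 and 0.24, the subunit Gnb2 by 0.022 and Elmo1, a partner of the Dock exchange factors, by 0.098. Arrb2, a beta-arrestin that takes receptors off the surface, differed by -2.25 (limma adjusted p = 0.0659), Dock2, which activates Rac in lymphocytes, by -2.62 (0.0521) and Rac2 by -2.78 (0.0622). Rgs2 and Rgs19, which end G protein signalling like Rgs1, differed by -3.09 and -0.72, and the receptor kinase Grk3 by -0.66.

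Of the 9 receptors, 5 lie on mouse chromosome 9, and 4 of them stand in a cluster. In the RefSeq order of GRCm38.p6 its protein-coding genes run Ccr9, Fyco1, Cxcr6, Xcr1, Ccr1, Ccr1l1, Ccr3 and Ccr2. The TIC minus CD24- differences along it were -1.22, 0.13, -2.42, -0.15, -3.55, -0.19, -1.15 and -1.07. Fyco1, which encodes an adaptor of autophagosome transport and is no chemokine receptor, was at 0.13 (limma adjusted p = 0.907). Ccr1 was the only gene of the 8 that passed the test without the tumor block, and it stands between Xcr1 and Ccr1l1, whose 95% intervals (-0.37 to 0.06 and -0.61 to 0.23) did not reach that of Ccr1.

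**Figure D5:**
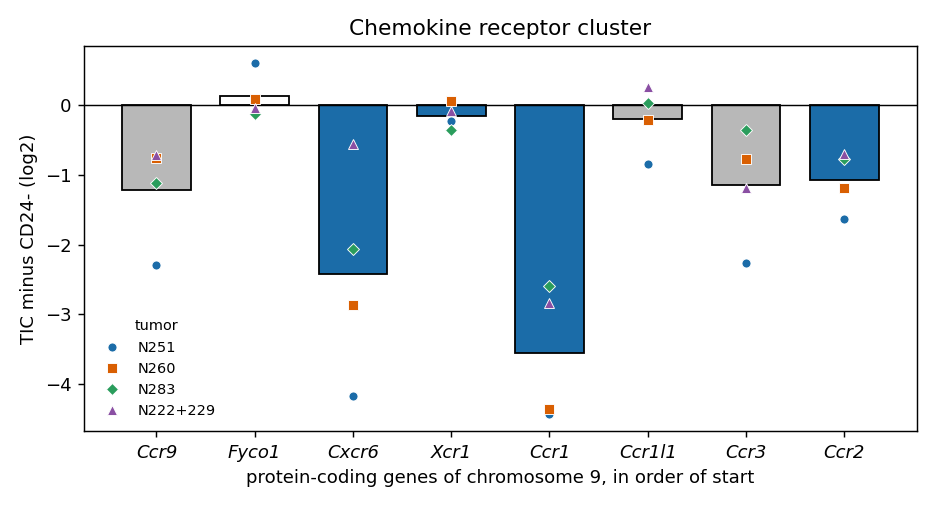
TIC minus CD24- difference (log2, vertical axis) of the protein-coding genes of the receptor cluster on chromosome 9, in their order, with bars for the mean and points for the tumors or pool. Blue bars are members of the 9, grey bars other chemokine receptors and the white bar Fyco1. Ccr1 at -3.55 stood between Xcr1 at -0.15 and Ccr1l1 at -0.19.

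Of 14 endothelial markers 0 were called in either direction, with a median of -0.090 and mean levels of 6.28 to 6.52 in the TIC arrays and 6.42 to 6.81 in the CD24- arrays. Pecam1, the adhesion molecule CD31, differed by -0.64 (limma adjusted p = 0.276), and by -0.38 without the CD24- array of N251. Of 14 fibroblast markers 0 were called (1 lower with the tumor block), with a median of -0.27 and mean levels of 6.28 to 6.56 in the TIC arrays and 6.70 to 7.12 in the CD24- arrays. Pdgfra, a growth factor receptor of fibroblasts, differed by 0.17 (0.689), and by 0.074 without that array. Of the 15 pan-leukocyte markers 8 were called lower (11 with the block) and 0 higher, with a median of -2.95, and Cd53, a tetraspanin of leukocytes, differed by -5.50 (0.00173, and 0.0783 without both arrays of N260). Epcam, an adhesion molecule of epithelium, was higher in the TIC fraction in 4 of 4 tumors, by 0.40 (0.19 without the CD24- array of N251), without passing the test (0.382).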

How the data were processed

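RNA of 8 sorted fractions was hybridised to Affymetrix Mouse Gene 1.0 ST arrays, after purification with the PicoPure kit per the labels' protocols. The deposited values are log2 intensities from RMA and Partek, per the submitters' processing notes. The sources used here do not give versions, settings or a genome build. Values ran from 1.76 to 14.6, and the highest correlation between arrays was 0.991. Of 35556 rows, 21789 carried 1 symbol in the platform annotation, 1621 several and 12146 none. Gene identifiers were matched to RefSeq names of GRCm38.p6 (21698 rows matched, 0 renamed). The brightest row of a gene was used, which left 19938 genes, 999 of them with more than 1 row. The sample titles name tumors N251 and N260 where the growth protocol has N250 and N261, and the titles were followed.

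All 8 arrays entered 1 fit of limma 3.58.1 (R 4.3.3, lmFit then eBayes), with no block. Unless the block is named, every SE and interval is from this fit, so the pairing by tumor does not enter them. Calls were made where the Benjamini-Hochberg adjusted p over all genes was under 0.05, and every adjusted p is from limma. Both fractions came from the same tumor per the labels, and the deviations of both arrays of a tumor from the mean of their fraction were correlated (0.322, 0.435, 0.300 and 0.557 in N251, N260, N283 and the pool). The block value is given where it changes a call. With the block the limma adjusted p was 0.126 for Cxcr2, 0.0946 for Cxcr3, 0.0945 for Ccr7, 0.396 for Cxcr4 and 0.386 for Xcr1, none of them called. The SE of the Cxcr3 difference was 0.20 with the block, against 0.33 without it. For Ccr2 the SE was 0.17 with the block, against 0.23 without it. The other members also had a smaller SE with the block. Alternatives covered the block, a random block, a filter on dim genes, the prior, array weights, 3 scalings, other row rules, a stricter threshold and left-out arrays. Tested on simulated data (20 draws, 200 of 19938 genes changed), the fit called 80.1% of log2 changes of 1 and 97.4% of 2, with 0.672% of calls false, and 92.7%, 99.2% and 7.61% with the block. The SD of Cxcr6 was 1.48 in the CD24- arrays and 0.16 in the TIC arrays, and that of Cx3cr1 was 1.16 and 0.29. Whether the percentages just given hold for genes with such unequal spread was not tested. The number of arrays limits the precision.

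The 9 members and all lists were chosen with earlier results of these data known. Named genes were the members, all measured other receptors, called ligands and signalling genes, the 2 nearest profiles of each called member, and in each marker list the first gene and the called gene with the largest difference. Other ligands and signalling genes were named after their values were seen, and Fyco1 for its place. Genes listed without a row of 1 symbol are not analysed here.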

Additional observations from a re-analysis of the deposited data

Results flagged for a closer look

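Among 122 groups of 4 arrays, 10 held an array whose gap to the nearest other exceeded the 95% critical value of Dixon's test, where chance alone gives about 6. In the CD24- fraction the outlying array was that of N251 each time. There Ccrl2 had 11.69, against 8.46 to 8.99 in the other CD24- arrays, and Ccr9 had 8.41, against 6.33 to 6.58. Ccr4 had 6.98 in that array and 5.88 to 6.02 in the others, Ccl2 had 9.34 and 7.93 to 8.15, and S100a8 had 6.34 and 5.61 to 5.65. In the TIC fraction the arrays were of several tumors. Ccl3 had 6.32 in N251 and 5.79 to 5.87 in the others, and Lyz2 had 6.99 in the pool and 6.04 to 6.20 in the others. Ccl2 had 6.56 in N260 and 6.77 to 6.80 in the others, Ackr3 had 6.02 in N251 and 6.15 to 6.17, and Ccr10 had 7.15 in N283 and 7.07 to 7.08. None of the 9 receptors was among the 10, in either fraction.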

How the results depend on the processing

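Of the 9 chemokine receptor genes, 2 were called lower in the TIC fraction. A replicate block for the tumor gave 3, and the count was 5 with a random block, 7 with array weights, 1 with only genes at or above the median level and 4 with the block and no arrays of N251 (added after the data were seen), and it was 0 to 7 with arrays left out. It was 0 without both arrays of N260, 1 without both of N283 and 7 without the CD24- array of the pool. The count higher was 0 in every setting run. Over all genes 148 were called lower, against 218 with the block, 606 with a random block, 778 with array weights, 58 at an adjusted p under 0.01 and 480 with the block and no arrays of N251, and 8 to 583 with arrays left out. The 10 called higher became 172, 430, 191, 0 and 360 in those settings, 5 with only genes at or above the median level, 19 with median centring, 6 with cyclic loess, 2 with all rows and 0 to 46 with arrays left out. Ccr1 was called in 22 of 23 settings and Cx3cr1 in 22 of 24, and Ccr2 in 6 of 23. The median of all genes moved by less than 0.1 between scalings.

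Differences near 0 that were not called changed sign. Ccr10 (-0.045) was 0.028 with array weights, 0.0024 with median centring and 0.025 with the block and no arrays of N251, with -0.11 to 0.025 when arrays were left out. Ccr1l1 was 0.029 with the block and no arrays of N251 and -0.34 to 0.029 with arrays left out. Cxcr1 was -0.0071 with the block and no arrays of N251 and -0.041 to 0.036 with arrays left out. Cxcr5 was 0.0056 with array weights and -0.089 to 0.0074 with arrays left out. Ackr3 was 0.017 with quantile normalization, 0.025 with median centring and 0.045 with the block and no arrays of N251, and -0.11 to 0.045 with arrays left out. Ackr1 and Ackr4 were -0.062 to 0.058 and -0.0079 to 0.067 with arrays left out. The cause was not tested for any of these changes.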
